A study of Mus musculus with 28 samples.

Results

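Among 14 hepatocellular carcinomas of c-Myc/Alb-cre mice, the 5 with the most Krt19 mRNA were compared with the 5 with the least. The tumours were chosen by their Krt19 level in counts per 1e6 counts of the library (CPM), ranked over all 14, so 10 of 14 tumours, and 10 of the 28 libraries in all, make up the comparison. The other 4 tumours lay between the groups. Each tumour has a library of peritumour tissue that carries the same sample code, taken here as the same animal, and those libraries played no part in the choice.

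All groups share 1 genotype, a c-Myc transgene with Alb-cre, in which the albumin promoter drives Cre recombinase, so that Cre is directed to hepatocytes. The groups were tumours high in Krt19 (5), tumours between (4), tumours low in Krt19 (5) and the peritumour tissue of the same 14 animals. Animals are named by the letter and replicate number of their labels, as F2 or M3, and the letters are not spelled out there; 11 animals carry F and 3 carry M. The Krt19-high tumours were F2, F6, F5, F3 and F8, and the Krt19-low tumours F10, F1, F4, M3 and M2. The high group thus holds no animal of letter M, against 2 in the low group. Sample codes come in 2 styles, a possible batch: 2 of the high and 3 of the low tumours have the first style.

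Krt19 encodes a small type I keratin. In the liver it is made by the cells that line bile ducts and by progenitor cells of the ductular reaction, while adult hepatocytes build their keratin filaments from Krt8 and Krt18. Hepatocellular carcinomas that express KRT19 are known in human pathology as a subtype with biliary or progenitor features and a fibrous stroma.

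The libraries held between 14777567 and 17576921 estimated counts each, of which the 10 most abundant genes took 6.2% to 11.5%. Hepatocyte mRNA was present in every tumour: Alb, which encodes albumin, lay between 9392 and 30546 CPM in the Krt19-high tumours and between 12336 and 24916 CPM in the Krt19-low tumours. The libraries are of bulk tissue, in which fewer cells of a type and less RNA per cell cannot be told apart. The tissue is given by the labels, which state nothing on how many nodules went into a library.

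Krt19 (gene ID 16669, chromosome 11, 100140810 to 100145926, minus strand, GRCm38) measured 799 CPM in F2, 39.0 in F6, 17.9 in F5, 7.85 in F3 and 7.76 CPM in F8. It measured 3.07 CPM in F10, 2.18 in F1, 2.15 in F4, 1.28 in M3 and 0.383 CPM in M2, where it rested on 6 estimated counts. F2 stood far above every other tumour, and F3 and F8 were closer to the tumours between than to F5. These values chose the groups and are given without a test. Just inside the limits lay F8 at 7.76 CPM and F10 at 3.07 CPM, and just outside them F11 at 6.99 CPM and F9 at 4.20 CPM.

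Per transcript length, F2 was also the tumour in which Krt19 reached the level of the hepatocyte keratins. As TPM, the authors' length-scaled unit that adds to the same total in every library, Krt19 stood at 1096 in F2, beside 1090 for Krt8 and 756 for Krt18. In the other 4 Krt19-high tumours it ran from 10.2 to 49.5 TPM, and in the Krt19-low tumours from 0.50 to 3.84 TPM. Krt8 lay between 422 and 1090 TPM in all 10 tumours compared.

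**Figure D1:**
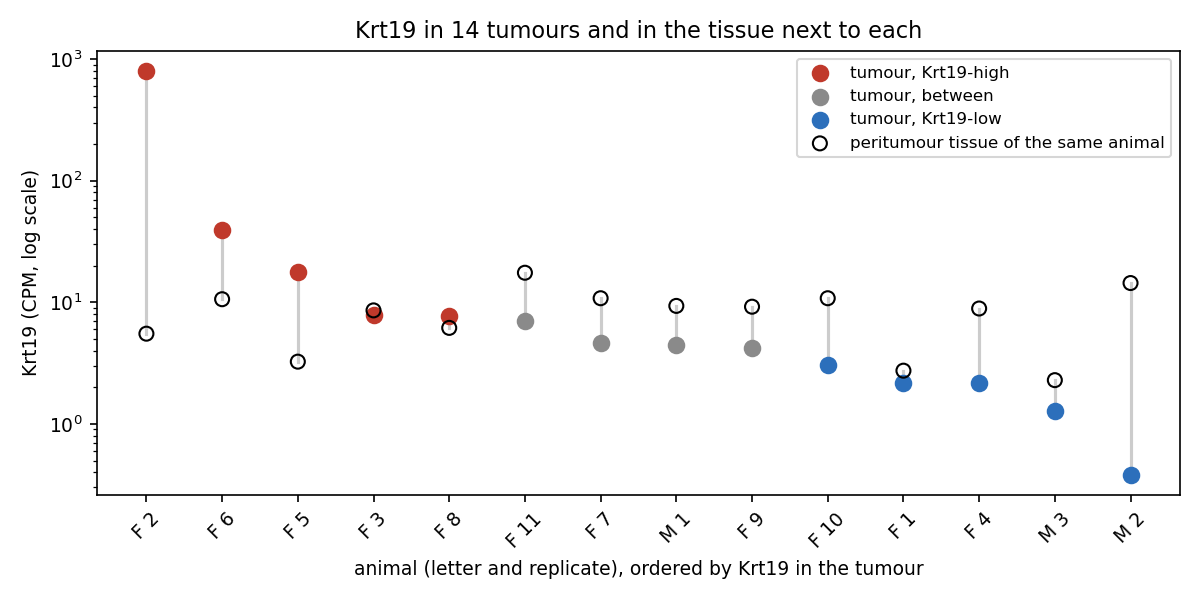
Krt19 (CPM, log scale) in each of the 14 tumours (filled points, coloured by group) and in the peritumour tissue of the same animal (open points), ordered by the tumour value. The tumours run from 799 down to 0.383 CPM, while the peritumour tissue of animals with Krt19-high tumours (3.25 to 10.6 CPM) and with Krt19-low tumours (2.29 to 14.4 CPM) overlaps.

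Over the 13574 other genes tested in tumours, 16 genes were higher and 0 lower in the Krt19-high group (edgeR quasi-likelihood test, Benjamini-Hochberg adjusted p under 0.05), which is 0.118% and 0.0% of the genes. DESeq2, run without its check for outlying counts, called 665 genes, 605 higher and 60 lower. At an unadjusted p under 0.05, edgeR gave 1435 higher (10.6%) and 496 lower (3.65%) genes. The adjusted p-values of the 16 genes ran from 0.0456 to 0.0486 (edgeR), all close to the threshold. The 16 were epithelial genes (Epcam, Krt7, Spint1), genes of the extracellular matrix and its growth factors (Aebp1, Adamts2, Ltbp2, Sfrp1), genes of the cytoskeleton (Obsl1, Flnc) and others (Kcnh2, Msi1, Lgi2, Brsk1, Mgat3, St3gal2 and BC034090). Obsl1, Krt7, Epcam, Aebp1, St3gal2 and Adamts2 were named by a rule on size and abundance, and the other 10 were named after their values were seen.

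Epcam and Krt7 are epithelial genes of the bile duct that are scarce in adult hepatocytes: Epcam encodes a cell adhesion protein of biliary and progenitor cells, and Krt7 a type II keratin that pairs with Krt19 in ducts. Epcam (chromosome 17, 87635979 to 87653813) measured 126 CPM in F2, 8.20 in F6, 27.1 in F5, 27.4 in F3 and 4.70 CPM in F8, against 2.11 CPM in F10, 1.52 in F1, 2.28 in F4, 0.960 in M3 and 0.829 CPM in M2. No Krt19-low tumour reached the lowest Krt19-high tumour, and the 4 tumours between, at 2.82 to 3.29 CPM, fell into the gap. The log2 fold change of Epcam was 4.30 ± 0.69 (SE), adjusted p = 0.0456 (edgeR).

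Krt7 (chromosome 15, 101412403 to 101427806) measured 256 CPM in F2, 14.1 in F6, 22.5 in F5, 22 in F3 and 3.06 CPM in F8, against 1.88 CPM in F10, 0.990 in F1, 1.88 in F4, 1.02 in M3 and 0.638 CPM in M2. The groups did not overlap, but F8 lay within the range of the tumours between, 2.38 to 4.17 CPM. The log2 fold change of Krt7 was 5.23 ± 0.92 (SE), adjusted p = 0.0486 (edgeR).

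The start regions of these 2 genes are shown because they are the epithelial genes that tracked Krt19 most closely. They are RefSeq promoter windows on GRCm38.p6, from 250 bases before to 50 after the start of the gene, both on the plus strand, at chr15:101412153-101412452 for Krt7 and chr17:87635729-87636028 for Epcam. Capitals mark matches, on either strand, to the GC box GGGCGG, the letters read by Sp and Klf factors, or to the E-box CACGTG, the letters read by Myc and its partners.
Krt7: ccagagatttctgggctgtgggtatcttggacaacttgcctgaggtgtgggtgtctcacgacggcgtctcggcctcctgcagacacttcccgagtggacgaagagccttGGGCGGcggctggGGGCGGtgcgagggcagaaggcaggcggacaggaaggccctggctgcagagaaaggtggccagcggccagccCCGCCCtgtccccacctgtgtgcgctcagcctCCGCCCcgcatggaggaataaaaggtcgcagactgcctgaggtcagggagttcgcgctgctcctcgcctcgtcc
Epcam: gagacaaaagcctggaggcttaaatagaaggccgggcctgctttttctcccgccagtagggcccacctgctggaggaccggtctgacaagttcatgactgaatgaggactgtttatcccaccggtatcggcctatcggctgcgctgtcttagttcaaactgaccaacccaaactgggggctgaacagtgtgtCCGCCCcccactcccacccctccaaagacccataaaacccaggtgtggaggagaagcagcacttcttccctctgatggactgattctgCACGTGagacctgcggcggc
The Krt7 window holds 4 GC boxes, and the Epcam window holds 1 GC box and, 30 bases after the start, 1 E-box. Of 32851 promoter windows of the same length, 35.7% hold GGGCGG and 7.15% hold CACGTG. The TATA box letters TATAAA, the Tead letters GGAATG and the Sox letters AACAAT were also searched on both strands and are not in either window (13.6%, 14.7% and 10.7% of all windows hold them). The matches describe the letters and were not tied to binding.

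Spint1 and St14 form a protease and inhibitor pair of epithelial surfaces. Spint1, a membrane inhibitor of serine proteases, measured 39.6 CPM in F2, 2.63 in F6, 18.5 in F5, 15.7 in F3 and 1.70 CPM in F8, against 0.683, 0.396, 1.28, 0.832 and 0.574 CPM in F10, F1, F4, M3 and M2. It rose with a log2 fold change of 4.07 ± 0.71 (SE), adjusted p = 0.0486 (edgeR). St14, the protease matriptase that Spint1 inhibits, had a log2 fold change of 3.18 ± 0.71 (SE) with adjusted p = 0.0542 (edgeR) and did not pass, with 4.17 to 110 CPM in the Krt19-high against 0.858 to 7.53 CPM in the Krt19-low tumours. F8, at 4.17 CPM, lay inside the Krt19-low range of St14.

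The tight junction claudins split the Krt19-high group. Cldn4 measured 52.5 CPM in F2, 3.25 in F6, 46.5 in F5, 48.8 in F3 and 0.764 CPM in F8, against 0.284 to 3.13 CPM in the Krt19-low tumours. Cldn7 measured 97.6, 13.4, 59.6, 25.5 and 2.00 CPM in F2, F6, F5, F3 and F8, against 0.384 to 5.10 CPM in the Krt19-low tumours. In both genes 4 of the 5 Krt19-high tumours stood above every Krt19-low tumour and F8 did not. For Cldn4, F6 did so only by little, at 3.25 CPM against 3.13 CPM in M2. The adjusted p was 0.0513 for each gene (edgeR). St14 and the claudins were named after their values were seen.

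The hepatocyte keratins showed no such split. Krt8 averaged 786 ± 240 CPM in the Krt19-high and 648 ± 163 CPM in the Krt19-low tumours (SD, n = 5 each), with a log2 fold change of 0.097 ± 0.32 (SE). Krt18 averaged 598 ± 129 and 428 ± 126 CPM in the Krt19-high and Krt19-low tumours (SD, n = 5 each), with a log2 fold change of 0.33 ± 0.38 (SE). Of the 13 tested genes in the list of biliary keratins and junctions, which leaves out Krt19, 2 rose (Epcam and Krt7), 0 fell, and 4 had an unadjusted p under 0.05 with a higher level. Over all genes tested the share higher at that unadjusted p was 10.6%. The median log2 fold change of the list was 0.35, against -0.02 for all genes tested.

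**Figure D2:**
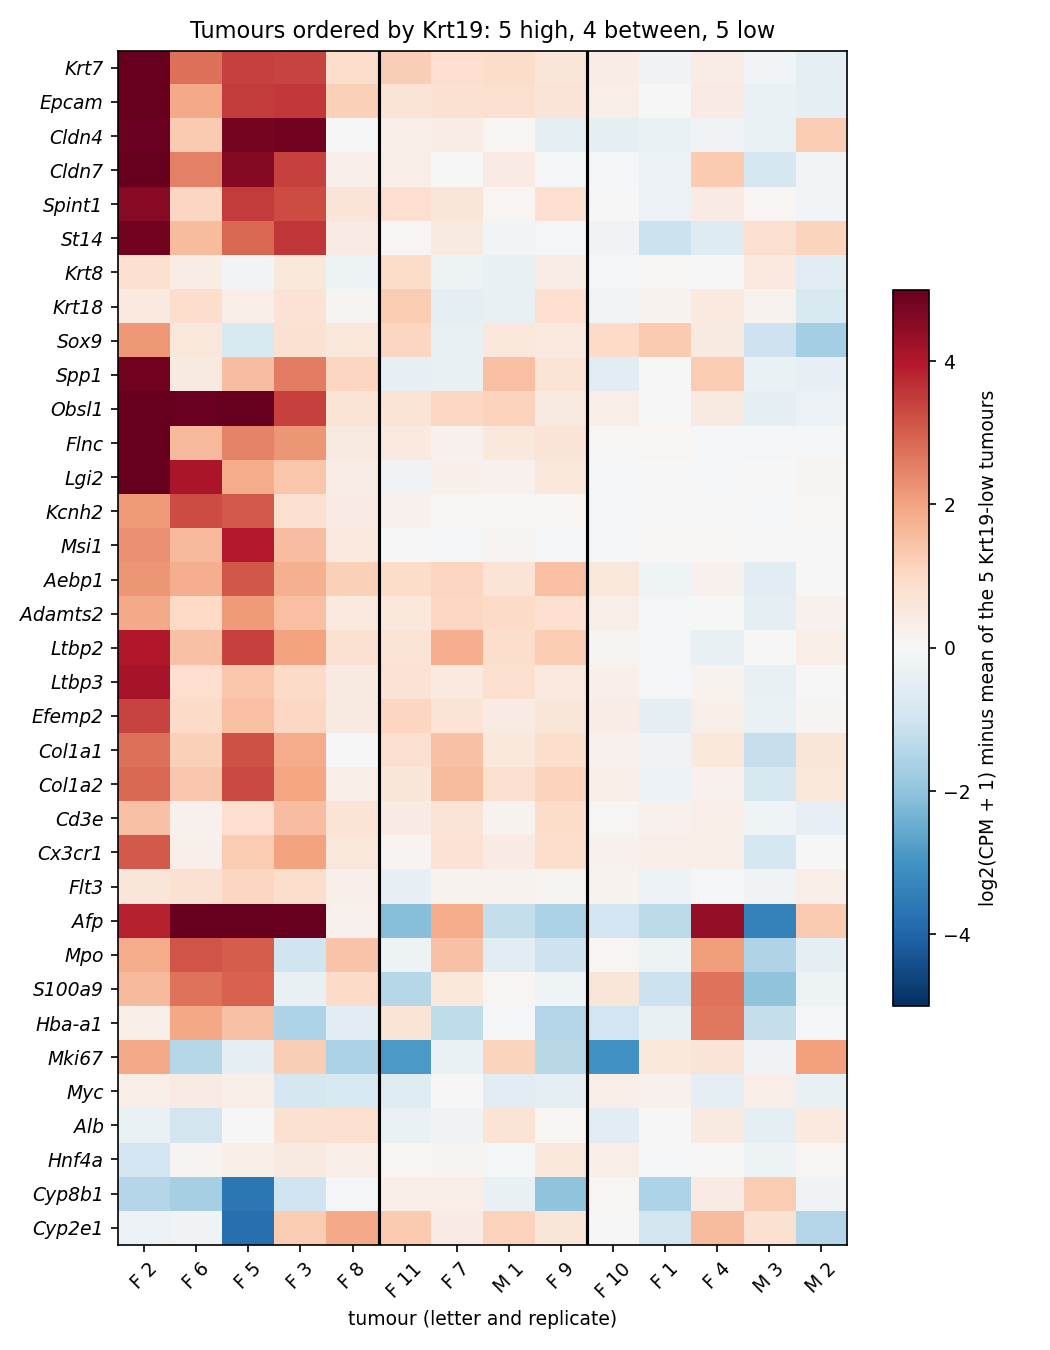
Values of 35 genes (rows) in the 14 tumours (columns, ordered by Krt19, with lines between the 5 high, 4 between and 5 low tumours), as log2(CPM + 1) minus the mean of the 5 Krt19-low tumours. Red in the top rows is found in F2, F5 and F3, is paler in F6 and is faint in F8. Krt8, Krt18, Alb and Hnf4a show no block of colour.

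Among the transcription factors and secreted proteins of the bile duct, no gene passed the adjusted threshold. Sox9, a transcription factor of ductal and progenitor cells, measured 39.0, 12.0, 4.26, 14 and 12.1 CPM in F2, F6, F5, F3 and F8, against 16.6, 20.8, 11.2, 3.26 and 1.72 CPM in F10, F1, F4, M3 and M2. The Sox9 ranges overlapped almost wholly, with adjusted p = 0.844 (edgeR), and F5, with the third highest Krt19, had the lowest Sox9 of the high group. Spp1, the secreted phosphoprotein osteopontin, measured 708, 33.3, 72.0, 150 and 53.0 CPM in F2, F6, F5, F3 and F8, against 16.6, 24.5, 59.6, 19.1 and 18.2 CPM in F10, F1, F4, M3 and M2. Its log2 fold change was 2.55 ± 0.70 (SE), adjusted p = 0.0898 (edgeR), and the groups overlapped through F4. In the list of biliary regulators and transport, 6 of 16 tested genes were higher at an unadjusted p under 0.05, with a median log2 fold change of 0.73, which was 0.24 without F2, and 1.33 and 0.36 within the first and second code style. The share of all genes tested that were higher at that level was 10.6%.

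Oncofetal and gut-type genes did not follow Krt19 through all tumours. Afp, which encodes the fetal serum protein used as a tumour marker, measured 477, 1562, 12740, 4153 and 37.2 CPM in F2, F6, F5, F3 and F8, against 16.2, 12.0, 702, 2.18 and 80.6 CPM in F10, F1, F4, M3 and M2. F8 lay below 2 of the Krt19-low tumours, and the adjusted p was 0.209 (edgeR). Muc13, a membrane mucin, ran the other way within the high group: it was 0.513 CPM in F2, the tumour with the most Krt19, and 93.6 CPM in F8, the one with the least of the 5. In the Krt19-low tumours Muc13 ran from 1.93 to 55 CPM, and its log2 fold change was 0.048 ± 1.14 (SE). Cdh17, an intestinal cadherin, measured 59.2, 2.44, 5.01, 16.6 and 0.0588 CPM in F2, F6, F5, F3 and F8, against 0 CPM in 4 of the 5 Krt19-low tumours and 0.829 CPM in M2. It did not pass, with adjusted p = 0.0547 (edgeR). Cdh17 met the filter on low counts through the Krt19-high group, so its p-value is a description. Of the gut-type list, 3 of 13 tested genes were higher at an unadjusted p under 0.05. As Cdh17 is among them, this count is a description. The median log2 fold change of the gut-type list was 0.44, and -0.10 without F2, F5 and F6. In the progenitor and oncofetal list 5 of 14 were higher at that level, with a median of 0.87, and 0.23 without F2, F5 and F6. Over all genes tested the share higher was 10.6%. Within the second code style the progenitor median was 0.15, and among F animals alone the gut-type median was 1.85.

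Matrix genes among the 16 were Aebp1, Adamts2, Ltbp2 and Sfrp1. Aebp1, a secreted collagen-binding protein of fibroblasts, measured 20.9, 15.6, 39.5, 15.3 and 9.87 CPM in F2, F6, F5, F3 and F8, against 5.97, 3.04, 4.43, 2.24 and 3.83 CPM in F10, F1, F4, M3 and M2. All 5 Krt19-high tumours, F8 included, were above all 5 Krt19-low tumours, and the log2 fold change was 2.19 ± 0.36 (SE), adjusted p = 0.0456 (edgeR). Adamts2, the protease that trims procollagen, measured 35.0, 18.5, 41.6, 26.7 and 12.6 CPM in F2, F6, F5, F3 and F8, against 11.1, 8.19, 8.73, 6.21 and 10.4 CPM in F10, F1, F4, M3 and M2. Its log2 fold change was 1.4 ± 0.25 (SE), adjusted p = 0.0486 (edgeR). Ltbp2, a fibrillin-related matrix protein, averaged 18.2 ± 16.7 CPM in the Krt19-high and 1.79 ± 0.50 CPM in the Krt19-low tumours (SD, n = 5 each), and Sfrp1, a secreted Wnt antagonist, 3.70 ± 2.60 and 0.433 ± 0.152 CPM in the Krt19-high and Krt19-low tumours (SD, n = 5 each). Both rose, with an adjusted p of 0.0486 each (edgeR).

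The fibrillar collagens themselves fell just short of the threshold. Col1a1 measured 413, 142, 567, 223 and 62.3 CPM in F2, F6, F5, F3 and F8, against 71.8, 53.4, 88.2, 26.6 and 92.9 CPM in F10, F1, F4, M3 and M2. Here F8 lay below 3 of the Krt19-low tumours, while the other 4 Krt19-high tumours were above all of them. The log2 fold change of Col1a1 was 1.87 ± 0.45 (SE) with adjusted p = 0.0630, and that of Col1a2 2.05 ± 0.41 (SE) with adjusted p = 0.0513 (edgeR). Of the 17 genes in the stellate and fibroblast list, 0 passed the adjusted threshold and 13 were higher at an unadjusted p under 0.05; all 17 had a positive log2 fold change, with a median of 1.36. That median was 1.07 without F2 and 1.04 without F2, F5 and F6. It was 1.68 within the first and 0.55 within the second code style. At an unadjusted p under 0.05, 10.6% of all genes tested were higher. A positive log2 fold change was found in 6542 of all 13574 genes tested.

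Obsl1, a cytoskeletal adaptor related to obscurin, measured 93.1 CPM in F2, 59.4 in F6, 84.6 in F5, 20.0 in F3 and 2.12 CPM in F8, against 1.42 CPM in F10, 0.990 in F1, 1.68 in F4, 0.384 in M3 and 0.574 CPM in M2. F8 was as low as the tumours between, which ran from 1.69 to 3.29 CPM. The log2 fold change was 5.43 ± 0.76 (SE), adjusted p = 0.0456 (edgeR). Flnc, the muscle-type filamin that cross-links actin, measured 41.7, 2.63, 5.54, 4.42 and 0.588 CPM in F2, F6, F5, F3 and F8, against at most 0.264 CPM in the Krt19-low tumours.

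Kcnh2, Msi1, Lgi2 and Brsk1 passed the threshold from levels near 0 in the Krt19-low tumours. Kcnh2, Msi1 and Brsk1 met the filter on low counts through the Krt19-high group, so their passing is a description: without any 1 of F2, F3, F5 and F6 they were not tested. Lgi2, Flnc and BC034090 also met that filter only with the Krt19-high group counted, so their passing is a description as well. With no filter Kcnh2, Msi1, Flnc and BC034090 passed the threshold, while Lgi2 and Brsk1 did not. Kcnh2, a voltage-gated potassium channel of the heart, measured 3.59, 9.20, 7.69, 0.810 and 0.411 CPM in F2, F6, F5, F3 and F8, against 0 to 0.128 CPM in the Krt19-low tumours. Msi1, an RNA-binding protein of neural and epithelial stem cells, measured 4.49, 2.50, 16.6, 2.30 and 0.588 CPM in F2, F6, F5, F3 and F8, against 0.0569 to 0.201 CPM in the Krt19-low tumours. Lgi2, a secreted protein of neurons, measured 47.3, 21.7, 3.85, 2.43 and 0.705 CPM in F2, F6, F5, F3 and F8, against 0.269 to 0.447 CPM in the Krt19-low tumours. Brsk1, a kinase of neuronal polarity, averaged 3.71 ± 3.51 CPM in the Krt19-high and 0.167 ± 0.131 CPM in the Krt19-low tumours (SD, n = 5 each). The Krt19-low values of Kcnh2, Msi1, Brsk1, Lgi2 and Flnc rest on a few counts per library, so the size of their fold change is uncertain.

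A pair of sugar-transferring enzymes also rose. St3gal2, a sialyltransferase of glycolipids and O-glycans, measured 36.9, 28.8, 41.0, 25.1 and 14.3 CPM in F2, F6, F5, F3 and F8, against 7.68, 10.1, 7.99, 4.29 and 11.1 CPM in F10, F1, F4, M3 and M2. Mgat3, which adds the bisecting residue of N-glycans, averaged 4.49 ± 2.33 CPM in the Krt19-high and 0.748 ± 0.093 CPM in the Krt19-low tumours (SD, n = 5 each). BC034090, a gene without a usual name, averaged 3.29 ± 1.55 and 0.457 ± 0.104 CPM in the Krt19-high and Krt19-low tumours (SD, n = 5 each).

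Over the 16 genes, F8 was the lowest of the 5 Krt19-high tumours in 15, and F2 the highest in 10. The 4 tumours between had a mean between those of the 2 groups in 15 of the 16. The groups did not overlap in any of the 16; over all genes tested, 304 (2.24%) were higher and 42 (0.309%) lower without overlap. In peritumour tissue the shares without overlap were 0.282% higher and 0.222% lower.

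Ranked by likeness to Krt19 over all 14 tumours (Spearman rho of CPM, 9347 genes with a mean of at least 10 CPM), the 8 genes at the top were Epcam (0.952), Krt7 (0.943), Obsl1 (0.934), Vwf (0.930), Aebp1 (0.916), Pmp22 (0.903), Ltbp3 (0.899) and Efemp2 (0.895). Leaving out F2 changed these values little, to between 0.868 and 0.940. Vwf, the clotting factor of vessel endothelium, measured 19.4, 21.4, 15.7, 13.4 and 11.6 CPM in F2, F6, F5, F3 and F8, against 10.6, 5.94, 4.10, 3.26 and 4.59 CPM in F10, F1, F4, M3 and M2. Its span was narrow beside that of Krt19, and its log2 fold change of 1.35 ± 0.34 (SE) did not pass, with adjusted p = 0.0670 (edgeR). Ltbp3, which holds latent TGF-beta in the matrix, and Efemp2, a fibulin needed for elastic fibres, were led by F2, with 97.2 and 55.7 CPM there, against at most 13.6 and 14.8 CPM in the other Krt19-high tumours.

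The peritumour libraries, which come from the same animals but were not used by the ranking, gave a second reading of these 8 relations, tested over 14 libraries on log2(CPM + 1) by permutation with adjustment over the 8. Krt7 followed Krt19 there most closely, with Pearson r = 0.951 (permutation p = 1e-05, the smallest the resamples can give, adjusted p = 8e-05) and Spearman rho = 0.916 (permutation p = 2e-05, adjusted p = 0.00016). Epcam had r = 0.866 (permutation p = 7e-05, adjusted p = 0.00028) and rho = 0.824 (permutation p = 0.00059, adjusted p = 0.00157). Efemp2, Ltbp3, Aebp1 and Pmp22 had r of 0.816, 0.837, 0.803 and 0.793 and rho of 0.855, 0.705, 0.705 and 0.653, with adjusted permutation p from 0.00058 to 0.00103 for r and from 0.0008 to 0.0183 for rho. Obsl1 and Vwf did not follow Krt19 in peritumour tissue: r was -0.237 and 0.132, rho 0.218 and 0.226, and the adjusted permutation p was at least 0.45 in each. Without M3 and F1, the libraries farthest from the median of Krt19, r was 0.896 for Krt7, 0.816 for Epcam and 0.627 to 0.742 for Efemp2, Ltbp3, Aebp1 and Pmp22. Within the first (6 libraries) and second (8 libraries) code style, r was 0.995 and 0.878 for Krt7, 0.913 and 0.799 for Epcam, and 0.876 to 0.992 and 0.508 to 0.686 for those 4 genes. Obsl1 (0.882 and -0.751) and Vwf (0.638 and -0.214) turned direction between the styles.

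**Figure D3:**
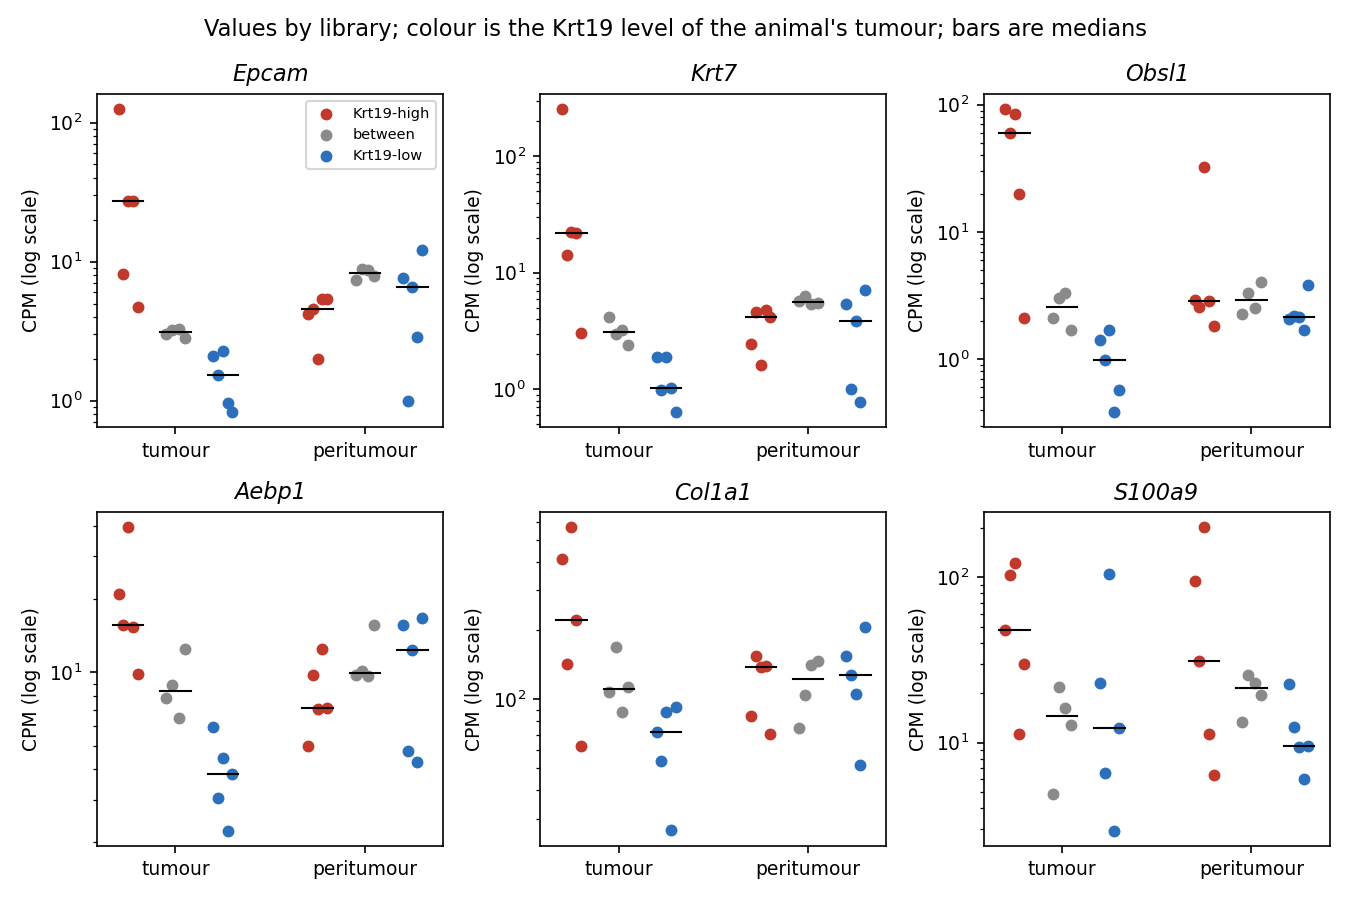
Values (CPM, log scale) of Epcam, Krt7, Obsl1, Aebp1, Col1a1 and S100a9 in each library of tumour (left in each panel) and peritumour tissue (right), coloured by the Krt19 group of the animal's tumour, with bars at the medians. The red points of Epcam, Krt7 and Aebp1 lie above the blue ones in tumour and among them in peritumour tissue, and 1 red peritumour point of Obsl1, at 32.1 CPM, is that of F5.

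Of the hepatocyte genes, Hnf4a and Cyp2e1 overlapped between the groups. Hnf4a, the transcription factor that maintains the hepatocyte, averaged 744 ± 230 CPM in the Krt19-high and 688 ± 97.1 CPM in the Krt19-low tumours (SD, n = 5 each), with adjusted p = 0.992 (edgeR); F2 had the lowest value of all 14 tumours, 349 CPM. Cyp2e1, the ethanol-oxidising P450 of pericentral hepatocytes, ran from 24.4 CPM in F5 to 1292 CPM in F8 among the Krt19-high tumours, and from 125 to 1056 CPM among the Krt19-low tumours. Of 18 hepatocyte identity genes 3 were lower and 0 higher at an unadjusted p under 0.05, with a median log2 fold change of -0.42, and 0.01 without F2, F5 and F6. Among 16 genes of bile acid handling and P450 enzymes 1 was lower, and among 11 periportal genes 2 were lower, at that level. Over all genes tested the shares were 3.65% lower and 10.6% higher. No gene of these lists passed the adjusted threshold.

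Myc and Mki67 overlapped between the groups. Myc averaged 489 ± 191 CPM in the Krt19-high and 511 ± 131 CPM in the Krt19-low tumours (SD, n = 5 each), with a log2 fold change of -0.24 ± 0.27 (SE). Reads of the transgene may be counted toward Myc, which the sources used here do not state. Mki67, a marker of dividing cells, averaged 104 ± 105 CPM in the Krt19-high and 112 ± 105 CPM in the Krt19-low tumours (SD, n = 5 each), adjusted p = 0.903 (edgeR). Of 18 cell cycle genes 2 were higher at an unadjusted p under 0.05, and of 17 Myc targets and ribosome biogenesis genes 0, with medians of 0.11 and -0.12. The share over all genes tested was 10.6% higher.

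By list median, markers of T cells, dendritic cells and the mesothelium lay higher in the Krt19-high than in the Krt19-low tumours. None passed the adjusted threshold. Cd3e, a chain of the T cell receptor complex, measured 3.53, 0.939, 1.98, 3.86 and 1.65 CPM in F2, F6, F5, F3 and F8, against 0.740, 0.924, 1.07, 0.448 and 0.255 CPM in F10, F1, F4, M3 and M2. Only F6 overlapped the Krt19-low tumours, and the log2 fold change was 1.59 ± 0.47 (SE), adjusted p = 0.118 (edgeR). Of 8 tested T cell genes 7 were higher at an unadjusted p under 0.05, with a median of 1.36, and of 12 genes of dendritic cells and MHC class II 8, with a median of 1.06. The share higher over all genes tested was 10.6%. Both medians differed with the code style: 2.05 for T cells and 1.68 for dendritic cells within the first style, 0.36 and -0.02 within the second. The summed T cell list ran from 9.70 to 43.9 CPM in the Krt19-high and from 5.95 to 14.2 CPM in the Krt19-low tumours.

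Msln, which encodes the mesothelial surface protein mesothelin, measured 11.9, 0.0626, 2.74, 0.498 and 0.646 CPM in F2, F6, F5, F3 and F8, against 0 to 0.336 CPM in the Krt19-low tumours. Mesothelial cells also make Krt19. The 12 mesothelial genes summed to 22.1, 8.76, 16.4, 8.28 and 4.05 CPM in F2, F6, F5, F3 and F8, against 2.22 to 4.57 CPM in the Krt19-low and 10.3 to 15.2 CPM in the tumours between. Of the 6 that passed the filter on low counts 5 were higher at an unadjusted p under 0.05, and none passed the adjusted threshold; as a gene could pass the filter through the high group alone, this count is a description. The tumours between thus had more mesothelial mRNA than 3 of the Krt19-high tumours, and the part of such cells in the Krt19 values was not tested.

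Among the remaining lists, genes with an unadjusted p under 0.05 were 7 of 13 Yap and Tead targets, 7 of 17 chemokines and cytokines, 5 of 15 Notch pathway genes and 5 of 13 genes of a mesenchymal shift, all higher, with medians of 0.64, 0.51, 0.35 and 0.68. These medians were smaller within the second code style, at 0.36, 0.20, 0.21 and 0.07, than within the first, at 0.90, 1.55, 0.55 and 1.12. Without F2, F5 and F6 the Yap and Notch medians were 0.35 and 0.03, and the chemokine and mesenchymal shift medians 0.47 and 0.60. The count of chemokines and cytokines includes Cxcl5, which met the filter on low counts through the Krt19-high group, so that count is a description. Ankrd1, a target of Yap, measured 46.7, 3.13, 5.13, 11.4 and 2.35 CPM in F2, F6, F5, F3 and F8, against 0.462 to 1.85 CPM in the Krt19-low tumours. Jag2, a Notch ligand, was high in F2 alone, with 33.2 CPM, against at most 3.15 CPM in the other Krt19-high and 2.24 CPM in the Krt19-low tumours. In the macrophage lists 4 of 11 monocyte and macrophage genes and 0 of 8 Kupffer cell genes reached that level, and in the endothelial lists 1 of 8 sinusoidal and 2 of 9 vascular genes. Pericentral genes gave 2 of 12 and B and plasma cell genes 1 of 6. Of all genes tested in tumours, 10.6% were higher and 3.65% lower at that level. No gene reached it among 9 cytotoxic and NK cell genes, 13 acute phase genes, 11 neutrophil genes, 10 erythroid genes and the 1 tested pancreas gene. All 11 neutrophil genes still had a positive log2 fold change, with a median of 1.01, and -0.53 without F2, F5 and F6. Of the 13 acute phase genes 1 was positive, with a median of -0.39, and 0.06 without those 3 animals. Over all 13574 genes tested, 6542 were positive.

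**Figure D4:**
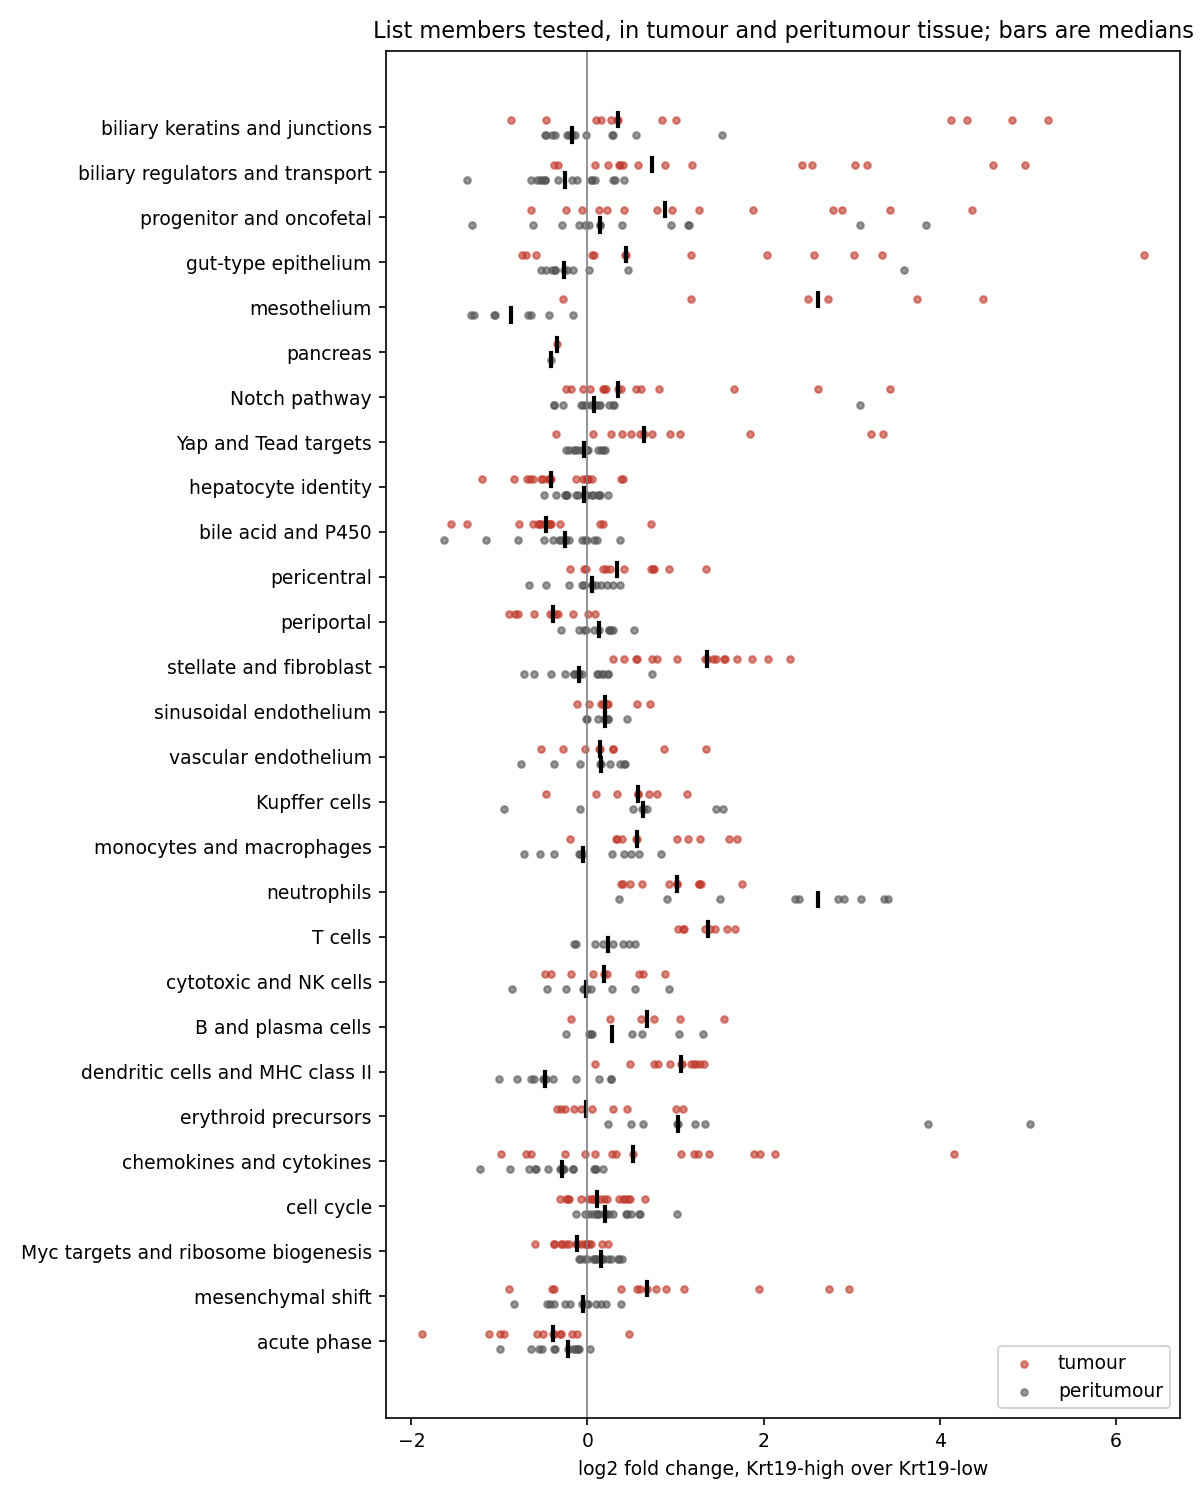
Log2 fold changes, Krt19-high over Krt19-low, of the tested members of 28 gene lists in tumour (red) and in the peritumour tissue of the same animals (grey), each point a gene and each bar a list median. In tumour the stellate and fibroblast and T cell medians lie at 1.36, against -0.10 and 0.23 in peritumour tissue, where the neutrophil (2.62), erythroid (1.02), mesothelial (-0.86) and Kupffer cell (0.63) medians lie farthest from 0.

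The Krt19 ranking of the tumours was not seen in the peritumour tissue, where the groups overlapped. Krt19 measured 5.52, 10.6, 3.25, 8.58 and 6.16 CPM in F2, F6, F5, F3 and F8, against 10.8, 2.74, 8.89, 2.29 and 14.4 CPM in F10, F1, F4, M3 and M2. The means of log2(CPM + 1) were 2.885 and 2.887 in animals with Krt19-high and Krt19-low tumours, and an exact permutation test (two-sided, all ways of splitting the 10 animals into 5 and 5) gave p = 1, where 0.00794 is the smallest p the design allows. M2 had the lowest Krt19 of all tumours and the highest of these 10 peritumour libraries.

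Of 13497 genes tested in peritumour tissue edgeR called 0 (0.0% higher and 0.0% lower), with 466 higher (3.45%) and 227 lower (1.68%) at an unadjusted p under 0.05, and DESeq2 called 27. Of the 16 genes that passed in tumours 14 were tested there, and 11 of them had a negative log2 fold change. Over all 13497 genes tested there, 6758 had a positive log2 fold change. Epcam averaged 4.33 ± 1.4 CPM in the peritumour tissue of animals with Krt19-high and 6.06 ± 4.37 CPM in that of animals with Krt19-low tumours (SD, n = 5 each). Krt7 averaged 3.53 ± 1.4 and 3.63 ± 2.76 CPM in the peritumour tissue of animals with Krt19-high and Krt19-low tumours (SD, n = 5 each). F5 stood apart in Obsl1, with 32.1 CPM in its peritumour tissue, against 1.83 to 2.92 CPM in the other 4 animals with Krt19-high tumours, and it also had the most Afp there, 2407 CPM.

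The largest list medians in peritumour tissue were those of neutrophil and erythroid genes. Of 10 tested neutrophil genes 8 were higher at an unadjusted p under 0.05, with a median log2 fold change of 2.62, and of 9 erythroid genes 5, with a median of 1.02. Over all genes tested in peritumour tissue the share higher was 3.45%, and 6758 of 13497 genes had a positive log2 fold change. The summed neutrophil list measured 508, 289, 777, 56.3 and 27.3 CPM in the peritumour tissue of F2, F6, F5, F3 and F8, against 24.1 to 89.1 CPM in that of the animals with Krt19-low tumours. The high values were those of F2, F6 and F5, and without these 3 animals the medians were -0.34 for neutrophil and -0.41 for erythroid genes. Of 8 Kupffer cell genes, which mark the resident macrophages of the liver, 4 were higher and 1 lower at an unadjusted p under 0.05, with a median of 0.63 that was 0.62 without those 3 animals. All 8 tested mesothelial genes had a negative log2 fold change, with a median of -0.86, none had an unadjusted p under 0.05, and the median was 0.21 within the first and -1.85 within the second code style. The tumours of the same 3 animals summed to 272, 596 and 476 CPM over the neutrophil list, against 59.7 and 134 CPM in F3 and F8, and 492 CPM in the Krt19-low tumour F4. F2, F6 and F5 are also the 3 tumours with the most Krt19, and without them 0 genes passed in tumours. The part of blood cell precursors in the tumour comparison was not tested.

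The test of the difference itself, tumour minus peritumour in Krt19-high against Krt19-low animals, called 22 of 13945 genes higher (0.158%) and 0 lower (0.0%) in edgeR, with 1044 higher (7.49%) and 145 lower (1.04%) at an unadjusted p under 0.05. Of the 16 genes that passed in tumours 9 were among the 22: Epcam, Krt7, Aebp1, BC034090, Flnc, Ltbp2, Spint1, Lgi2 and Mgat3. The difference was 4.76 ± 0.85 for Epcam, 5.23 ± 1.04 for Krt7 and 2.55 ± 0.52 for Aebp1 (log2, SE), each with adjusted p = 0.0381 (edgeR). The other 13 included Wnt7b, a Wnt ligand, Fzd3, a receptor of that family, Sulf1, which trims heparan sulfate, and Pdgfb, a growth factor for mesenchymal cells, which were named after their values were seen. With the animal as a block, 0 genes passed (0.0%), with 1249 higher (8.96%) and 579 lower (4.15%) at an unadjusted p under 0.05. The blocked values were 3.92 ± 0.90 for Epcam, 3.78 ± 1.05 for Krt7 and 2.39 ± 0.41 for Aebp1 (log2, SE), with adjusted p of 0.162, 0.179 and 0.0876 (edgeR).

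How many genes were called in tumours depended on single libraries. Without F8, whose Krt19 was the lowest of the high group, 449 genes passed, the 16 among them, and without F6 113. Without F2 4 passed, Epcam, Krt7, Obsl1 and Flnc. The count was 27 without F3 and 0 without F5, or without any 1 of the 5 Krt19-low tumours. With the letter as a covariate or among F animals alone 0 genes passed, as within either code style, and with code style as a covariate 3 did (Aebp1, BC034090 and Obsl1). The 16 log2 fold changes were positive in each of these fits that tested the gene. The groups did not overlap in CPM in any of the 16, so the sign in a subset was set in advance. The values ran from 1.31 to 6.26 among F animals alone. Within the first code style they ran from 1.62 to 6.89 and within the second from 1.11 to 7.06. Over all tumours they ran from 1.4 to 6.08. A fit that used the Krt19 level of all 14 tumours in place of groups called 809 genes, and 113 without F2.

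**Figure D5:**
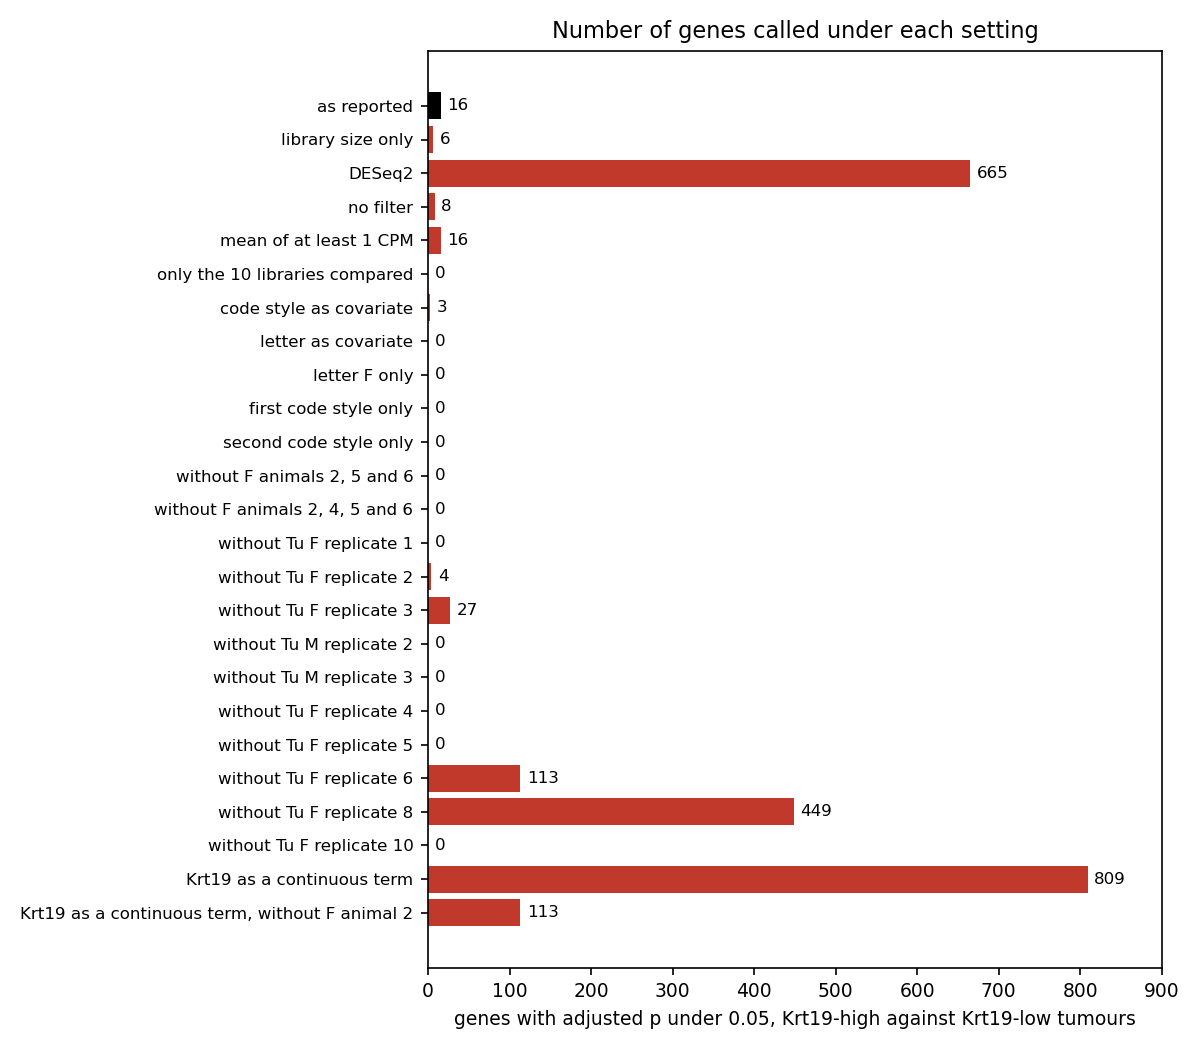
Number of genes with adjusted p under 0.05 between Krt19-high and Krt19-low tumours as reported (black, 16) and under each other setting (red), with linear axis from 0. The bars for DESeq2 (665), without F8 (449, shown as Tu F replicate 8) and Krt19 as a continuous term (809) are the longest, and 13 settings give 0.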

How the data were processed

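RNA was sequenced from 14 tumour and 14 peritumour libraries. Total RNA was taken with Trizol and mRNA was selected with oligo(dT) beads, per the labels' protocols. Per the submitters' processing notes the tools were RSEM 1.2.12, Bowtie2 2.2.5, HISAT2 2.0.4 and DESeq2 1.4.5, with no step named for any. The authors deposited estimated counts and TPM per gene and library, per the file headers, and 8.06% of the estimated counts are not whole. The sources used here do not state whether the libraries were stranded, so a gene and one antisense to it cannot be told apart.

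The table held 18182 genes, without 1 line that lacked a gene ID, with coordinates as deposited, on GRCm38. Tumours were ranked by Krt19 CPM, the estimated count over the column total times 1000000. The members, the 28 gene lists and the tests were chosen with earlier results of these data known, and the genes named were partly picked after their values were seen. Genes named by rule were the 10 largest rises and falls past the threshold with a mean of at least 10 CPM, up to 2 passing members each way per list, the 8 genes most alike to Krt19 and a short list always shown. Some results are not reported here. Of the list members 4 were not matched to the table.

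Estimated counts were rounded. Tests used edgeR 4.0.16 in R 4.3.3: TMM scaling (factors 0.790 to 1.33 in tumours), filterByExpr, a robust quasi-likelihood fit to all 14 libraries of a tissue in 3 levels, with p-values adjusted by Benjamini-Hochberg across every gene tested, threshold 0.05. Krt19 was left out of the tumour test. A gene could meet the filter through the Krt19-high group alone, so the counts of list members at an unadjusted p are descriptions. Since Krt19 set the groups, a test of another gene asks only whether it goes with that grouping. P-values measure the spread between animals as far as sample codes mark animals. The difference between tissues was fitted to all 28 libraries. Same-coded tumour and peritumour libraries were correlated in their deviations from the group means (0.208 to 0.764 in the 14 pairs), so the blocked values are given. Permutations used 100000 resamples (numpy 2.4.6). Alternatives were DESeq2 1.42.0, library size scaling, other filters, covariates for letter and code style, subsets, leaving out each compared animal, and Krt19 as a continuous term. The animals with tumours between were not left out singly. DESeq2 was run without its check for outlying counts (Cook's distance) and without independent filtering. Leaving out F2 from the continuous fit was added after the data were seen. Fits were tested on simulated data. The simulated counts had less spread than the tumour libraries and no link between libraries of the same animal, so they cannot decide these calls. The 28 FPKM columns were not used here.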

Additional observations from a re-analysis of the deposited data

Results flagged for a closer look

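The highest or lowest library of its group stood apart from the rest in 27 of 378 groups of 4 or 5 libraries, over 63 named genes in both tissues on log2(CPM + 1), by Dixon's gap test at the 95% level, which chance alone passes in about 1 of 20 groups. Among the 5 Krt19-high tumours these were Ltbp3 in F2 (97.2 CPM), Hnf4a in F2 (349 CPM), Jag2 in F2 (33.2 CPM) and Hsd17b13 in F3 (802 CPM). Among the 4 tumours between they were Kcnh2 in F11 (0.235 CPM), Hsd17b13 in M1 (1074 CPM), Stab1 in M1 (43.5 CPM) and Flt3 in F11 (0.176 CPM). Among the 5 Krt19-low tumours they were Brsk1 in F1 (0.396 CPM), Cdh17 in M2 (0.829 CPM), Cx3cr1 in M3 (1.79 CPM), Cldn4 in M2 (3.13 CPM) and Hba-a1 in F4 (1417 CPM). In the peritumour tissue of the 5 animals with Krt19-high tumours they were Obsl1 in F5 (32.1 CPM), Epcam in F5 (2.01 CPM), Vwf in F6 (23.7 CPM), Sox9 in F5 (4.48 CPM), Spint1 in F5 (0.454 CPM), Brsk1 in F5 (3.77 CPM), Cyp8b1 in F5 (13.6 CPM) and Cldn7 in F5 (0.779 CPM). In that of the 4 animals between they were Aebp1 in F9 (15.7 CPM), Efemp2 in F9 (14.2 CPM), Ltbp2 in F11 (2.33 CPM) and Flt3 in F11 (0.82 CPM). In that of the 5 animals with Krt19-low tumours they were Brsk1 in M2 (1.2 CPM) and Cxcl5 in M2 (2.4 CPM).

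The tumour minus peritumour change differed between animals with Krt19-high and Krt19-low tumours in 9 named genes (edgeR, adjusted p under 0.05 over all genes tested). The differences, on the log2 scale with the Krt19-high animals minus the Krt19-low ones, were Krt7 (5.23), Epcam (4.76), Aebp1 (2.55), BC034090 (3.00), Flnc (5.64), Ltbp2 (3.50), Spint1 (4.59), Lgi2 (5.90) and Mgat3 (2.44). With the animal as a block none of the 9 passed.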

How the results depend on the processing

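For the comparison of Krt19-high with Krt19-low tumours, which called 16 genes, the count was 6 with library size scaling alone, 665 with DESeq2, 8 without a filter, 3 with code style as a covariate and 809 with Krt19 as a continuous term (113 without F2). It was 0 with only the 10 libraries compared, with the letter as a covariate, for letter F only, within the first or the second code style, without F2, F5 and F6, and without F2, F4, F5 and F6, and 0 to 449 with 1 library left out. The median log2 fold change of all genes was 0.14 with library size scaling, against -0.02 as reported, and that of the Myc target list 0.04, against -0.12. The peritumour count of 0 was 27 with DESeq2, 8 with the continuous term without F2, and 0 to 2 with 1 library left out, the 2 without F8. The count of 22 genes for the difference between tissues was 0 with the replicate block, 40 with library size scaling, 267 with DESeq2, 0 without F2, F5 and F6, and 0 to 176 with 1 animal left out. The block applies to no other comparison here and changed no other call. The cause of these shifts was not tested, beyond the smaller number of libraries in the subsets.

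The difference of Krt19 in peritumour tissue, -0.002 on log2(CPM + 1), was 0.036 with a pseudocount of 0.1, 0.163 without F2, F5 and F6, and -0.294 to 0.263 with 1 library left out. The Krt19-high and Krt19-low tumours did not overlap in CPM in the genes that passed, so the sign in a subset was set in advance. No gene that passed the threshold changed sign. Log2 fold changes of 15 genes that did not pass did so, and the value in brackets is that reported. Sox9 (0.36) was -0.24 for letter F only, -0.65 in the second code style and -0.097 to 0.72 with 1 library left out. Jag2 (2.62) was -0.036 and S100a9 (0.92) -0.54 without F2, F5 and F6. Muc13 (0.048) was -0.0027 with library size scaling, -0.53 with the code style and -0.36 with the letter as covariate, -0.0051 for letter F only, -1.15 in the first style, -0.56 with the continuous term, -0.25 for that without F2, and -1.36 to 0.49 with 1 left out. Alb (0.047) was -0.014 in the second style, -0.13 with the continuous term, -0.12 for that without F2, and -0.23 to 0.22 with 1 left out. Hnf4a (0.0095) was -0.018 without a filter, -0.091 and -0.12 with the code style and the letter as covariate, -0.070 for letter F only, -0.19 and -0.0038 in the first and second style, -0.13 with the continuous term, and -0.10 to 0.21 with 1 left out. Cyp2e1 (0.18) was -0.021 for letter F only, -0.37 in the second style, -0.17 with the continuous term, -0.0073 for that without F2, and -0.52 to 0.73 with 1 left out. Myc (-0.24) was 0.015 with the continuous term and 0.032 for that without F2. Mki67 (-0.31) was 0.44 with the letter as covariate, 0.28 for letter F only, 0.28 in the first style, 0.022 with the continuous term, and -0.85 to 0.31 with 1 left out. Tbx21 (0.88) was -0.0002 in the second style. Tfrc (-0.30) was 0.074 with the letter as covariate and 0.44 in the second style. Krt8 (0.097) was -0.046 with the letter as covariate, -0.079 in the second style, and -0.039 to 0.25 with 1 left out. Hba-a1 (-0.15) was 0.048 with the continuous term, 0.22 for that without F2, and -0.72 to 1.31 with 1 left out. In peritumour tissue, Krt19 (-0.18) was 0.12 in the first style, 0.0017 without F2, F4, F5 and F6, 0.012 with the continuous term without F2, and -0.41 to 0.11 with 1 left out. Krt7 there (-0.016) was 0.036 for letter F only, 0.29 in the first style, 0.34 without F2, F5 and F6, 0.36 without F2, F4, F5 and F6, and -0.26 to 0.33 with 1 left out.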

Other observations

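Some list members not described above were higher on average in the Krt19-high tumours. None passed the adjusted threshold, and all were named after their values were seen. Cxcl5, a chemokine that attracts neutrophils, measured 15.0, 1.00, 2.39, 0.436 and 0.705 CPM in F2, F6, F5, F3 and F8, against 0.0640 to 0.284 CPM in the Krt19-low tumours (adjusted p = 0.0513, edgeR). Cxcl5 met the filter on low counts through the Krt19-high group, so its p-value is a description. Ncam1, a cell adhesion molecule of nerve that is also found on liver progenitor cells, ran from 1.06 to 18.8 CPM in the Krt19-high and from 0.320 to 0.940 CPM in the Krt19-low tumours (adjusted p = 0.0549, edgeR). Flt3, the cytokine receptor of dendritic cell precursors, ran from 0.823 to 2.22 CPM in the Krt19-high and from 0.264 to 0.957 CPM in the Krt19-low tumours.

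In the liver zonation and acute phase lists, Glul, the glutamine synthetase of pericentral hepatocytes, averaged 323 ± 66.2 CPM in the Krt19-high and 176 ± 52.1 CPM in the Krt19-low tumours (SD, n = 5 each), without overlap and with adjusted p = 0.198 (edgeR). Cyp8b1, a bile acid hydroxylase, averaged 29.1 ± 22 CPM in the Krt19-high and 79.6 ± 50.8 CPM in the Krt19-low tumours (SD, n = 5 each), with adjusted p = 0.289 (edgeR). Saa3, an acute phase protein, ran from 9.78 to 90.7 CPM in the Krt19-high and from 9.54 to 400 CPM in the Krt19-low tumours.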
